A study of Mus musculus with 12 samples.

Results

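The 30 genes described here make nucleotides, recycle them or, in 1 case, copy DNA with them. They were taken by symbol pattern from the 748 endogenous genes of a mouse metabolic pathway panel, so that a gene belongs by its name alone. Of the 30 genes, 28 were among the 640 that lay above background in at least 3 lanes and entered the test. The pattern also asks for subunits of DNA polymerases alpha, delta and epsilon and of the RNA polymerases, but the only polymerase gene it found among endogenous genes was Pole. The panel carries Polr2a as a housekeeping gene, which leaves 0 members for the RNA polymerases, so the values below are those of nucleotide enzymes and of Pole.

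The samples are T cell preparations from tumors of mice given a blocker of the receptors for vasoactive intestinal peptide (VIP), an antibody against PD-1, or both. RNA was counted on the nCounter instrument, which reads color-coded probes bound to single RNA molecules without amplification, with 1 lane for each mouse. The comparisons ask what each agent did alone, what the pair did, and what either agent added to the other.

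All 12 mice were female C57BL/6 animals carrying subcutaneous tumors of KPC-Luc, a luciferase-marked mouse pancreatic cancer line, and their age is not in the labels. Cells of the dissociated tumors were pulled out with magnetic beads against CD90.2, a surface protein of T cells, with a purity of 80 to 85% per the labels. Treatment began 6 to 7 days after implantation and ran for 10 days. The Scram+IgG mice received 10 µg of scrambled peptide daily and 200 µg of isotype IgG every 3 days. The ANT008+IgG mice received the VIP receptor antagonist ANT008 at 10 µg in place of the scrambled peptide, again with IgG. The Scram+aPD-1 mice received scrambled peptide with 200 µg of anti-PD-1, and the ANT008+aPD-1 mice received ANT008 with anti-PD-1. Each group had 3 mice. Values listed below run over mice 1, 2 and 3 of each group.

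Cells obtain purines and pyrimidines by building the rings from small precursors or by salvaging bases and nucleosides. Ribonucleotide reductase then turns ribonucleotides into deoxynucleotides, thymidylate synthase supplies the thymine form, and nucleoside diphosphate kinases load the last phosphate before polymerases use them. Resting T cells live largely on salvage, and T cells that enter the cell cycle switch on the building pathways and the reductase, while adenosine made outside cells by Nt5e restrains T cells in tumors.

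Depth set what could be read. The endogenous counts summed to 1388586, 256703 and 1486646 in Scram+IgG, 1357305, 202511 and 100293 in ANT008+IgG, 1480466, 664792 and 93480 in Scram+aPD-1 and 5776, 268678 and 24813 in ANT008+aPD-1. A lane's background was set from its 8 negative controls, at 2 SD over their mean, and lay between 9.94 and 28.2 counts. Above it were 28, 26 and 28 in Scram+IgG, 28, 26 and 25 in ANT008+IgG, 28, 28 and 26 in Scram+aPD-1 and 4, 26 and 10 in ANT008+aPD-1 of the 30 genes. ANT008+aPD-1 mice 1 and 3, called the shallow lanes below, thus had 4 and 10 readable members, and the other 10 lanes, called the deeper lanes, had 25 to 28.

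Counts were divided by a lane size, the geometric mean of the 3 of 20 housekeeping genes that were above background in all 12 lanes (Dnajc14, Oaz1 and Ubb). The quotient is called the scaled count. The sizes ran from 0.0277 in ANT008+aPD-1 mouse 1 to 6.39 in Scram+IgG mouse 3. The division also multiplies background, which on the scaled axis came to 358 in ANT008+aPD-1 mouse 1 and 149 in mouse 3 of that group, against 3.42 to 46.3 in the other lanes. In those 2 lanes, a scaled count below these marks is a count that cannot be told from background. Only Dck, Hprt and Nme2 were above background in all 12 lanes. Ampd1, the AMP deaminase of muscle, and Upp2, a uridine phosphorylase of liver, were above it in none, with at most 22 and 17 counts in a lane, and they were not tested.

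Together the members held 1.80, 3.48 and 2.72 in Scram+IgG, 1.92, 3.64 and 2.59 in ANT008+IgG, 1.92, 2.50 and 3.05 in Scram+aPD-1 and 2.44, 1.86 and 3.15 in ANT008+aPD-1 percent of the endogenous count. Without Nme2 the share was between 1.29% and 1.94%. Nme2 therefore makes most of the difference between lanes in the summed level.

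The T cell label was checked against 8 T cell markers of the panel (Cd3d, Cd3e, Cd3g, Cd247, Cd4, Cd8a, Cd8b1 and Lck). All 8 were above background in 11 of the lanes and 5 were in ANT008+aPD-1 mouse 1, with Cd3d the most abundant by scaled count. Their summed scaled count was 4373, 681 and 656 in Scram+IgG, 2919, 1149.6 and 1293 in ANT008+IgG, 2616, 1433 and 1619 in Scram+aPD-1 and 3352, 2884 and 3718 in ANT008+aPD-1. Scram+IgG mice 2 and 3 were the lowest, and Scram+IgG mouse 1 the highest.

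Markers of other cells were also counted. All 5 myeloid markers were above background in at least 7 lanes, Cd68 was the most abundant, and their summed scaled count was 1435, 368 and 598 in Scram+IgG, 1382, 1246 and 559 in ANT008+IgG, 1929.8, 795 and 1516 in Scram+aPD-1 and 1946, 1547 and 2322 in ANT008+aPD-1. Both NK cell markers, of which Klrd1 was the more abundant, summed to 1081, 123 and 182 in Scram+IgG, 844, 194 and 435 in ANT008+IgG, 497, 203 and 340.2 in Scram+aPD-1 and 829, 778 and 589.6 in ANT008+aPD-1. The 3 stroma and tumor markers, led by Vegfa, summed to 266, 388 and 431 in Scram+IgG, 428, 384 and 727 in ANT008+IgG, 380.4, 697 and 385 in Scram+aPD-1 and 757, 578 and 541 in ANT008+aPD-1. Ms4a1, a B cell marker, was at or below background in 9 lanes, and its raw count was 16, 10 and 26 in Scram+IgG, 26, 4 and 1 in ANT008+IgG, 32, 15 and 4 in Scram+aPD-1 and 4, 3 and 4 in ANT008+aPD-1. The part of these cells in the values of the nucleotide genes was not tested. In RNA from many cells, fewer cells of a type and less RNA in each cannot be told apart.

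Across the 640 genes, edgeR called 0 at a false discovery rate (FDR, the adjusted p) below 0.1 in each of the 6 comparisons, and so 0 of the 28 tested members. For ANT008+aPD-1 against Scram+IgG, 0% of genes were called, and an unadjusted p below 0.05 was found for 12.8% (82 genes), among them 1 member, Tk1. DESeq2 called 30 genes and 0 members there, and voom with sample weights called 156 genes and 3 members (Nt5e and Pnp higher, Tk1 lower). The count of members called also went from 0 to 1 without Scram+IgG mouse 1 (Nt5e) and without ANT008+aPD-1 mouse 2 (Pnp), where 84 and 68 genes were called. Pnp was above background in 0 ANT008+aPD-1 lanes, so a direction cannot be read from its calls.

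Between ANT008+IgG and Scram+IgG, 0% of genes were called by edgeR and 0.469% (3 genes) had p below 0.05 before adjustment, with 1 member, Gmps. Between Scram+aPD-1 and Scram+IgG, 0% were called and 1.09% (7 genes) had such a p, with 0 members. DESeq2 called 0 genes in both comparisons. Voom called 44 and 143 genes, with 2 members for ANT008 alone (Gmps and Nt5e) and 3 for anti-PD-1 alone (Adal, named after its values were seen, and Tyms lower, Nt5e higher). Without Scram+IgG mouse 1, the genes with an unadjusted p below 0.05 numbered 55 for ANT008 alone and 81 for anti-PD-1 alone, of which 2 and 1 were members.

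When anti-PD-1 was added to ANT008, 0% of genes were called by edgeR and 7.81% (50 genes) had p below 0.05 before adjustment, with 1 member, Tk1. When ANT008 was added to anti-PD-1, 0% were called and 6.25% (40 genes) had such a p, with 2 members, Pole and Tk1. For the interaction, the difference between what ANT008 did with and without anti-PD-1, 0% were called and 1.41% (9 genes) had such a p, with 1 member, Pole. DESeq2 called 5, 5 and 0 genes in these comparisons and voom 5, 0 and 0, with 0 members by either tool. Without ANT008+aPD-1 mouse 2, edgeR called 26, 35 and 1 genes and 0 members.

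The median log2 fold change of the 28 members was 0.031 for the pair of agents against Scram+IgG, beside 0.12 over all tested genes. With ANT008 alone the medians were 0.14 and 0.11, and with anti-PD-1 alone 0.18 and 0.15. When anti-PD-1 was added to ANT008 the members had a median of -0.25 and all genes -0.037, and when ANT008 was added to anti-PD-1 the medians were -0.22 and -0.037. The interaction gave -0.28 for members and -0.17 for all genes. These comparisons share groups, so they are not independent of each other.

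Several of these medians changed sign with 1 lane, and the median over all genes, given in parentheses, moved as well. Without ANT008+aPD-1 mouse 2, the members' median was 0.39 (0.37) against Scram+IgG, 0.074 (0.21) against ANT008 alone, 0.12 (0.15) against anti-PD-1 alone and 0.062 (0.027) in the interaction. Without mouse 3 of that group the median against Scram+IgG was -0.31 (-0.064), and without mouse 1 it was -0.018 (0.057). It was -0.20 (0.099) without Scram+IgG mouse 1. Without ANT008+IgG mouse 2 the median for ANT008 alone was -0.25 (-0.047), that for adding anti-PD-1 to ANT008 was 0.021 (0.21), and the interaction was 0.046 (0.066). Without Scram+aPD-1 mouse 3 the median for anti-PD-1 alone was -0.072 (-0.067), that for adding ANT008 to anti-PD-1 was 0.12 (0.17), and the interaction was 0.069 (0.048). Without Scram+IgG mouse 1 the median for ANT008 alone was -0.035 (0.099), and that for anti-PD-1 alone was -0.0026 (0.13).

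The tool and the scaling moved the medians too. With voom they were 0.087 (0.29) for the pair of agents, -0.13 (-0.018) for ANT008 alone, -0.19 (-0.0068) for anti-PD-1 alone, 0.13 (0.36) for adding anti-PD-1, 0.22 (0.26) for adding ANT008 and 0.33 (0.25) for the interaction, so that 5 of the 6 members' medians had the other sign. The median for the pair was -0.20 (-0.0010) with DESeq2, -0.20 (-0.034) under TMM scaling, the trimmed-mean scaling of edgeR, -0.10 (0.084) with total-count scaling and -0.70 (-0.37) after background subtraction. DESeq2 kept the sign of the other 5. With total-count scaling the median was -0.058 (-0.071) for anti-PD-1 alone, 0.017 (0.14) for adding ANT008 and 0.069 (0.11) for the interaction. These had the other sign. It kept its sign at 0.025 (0.025) for ANT008 alone and -0.17 (0.022) for adding anti-PD-1.

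**Figure D1:**
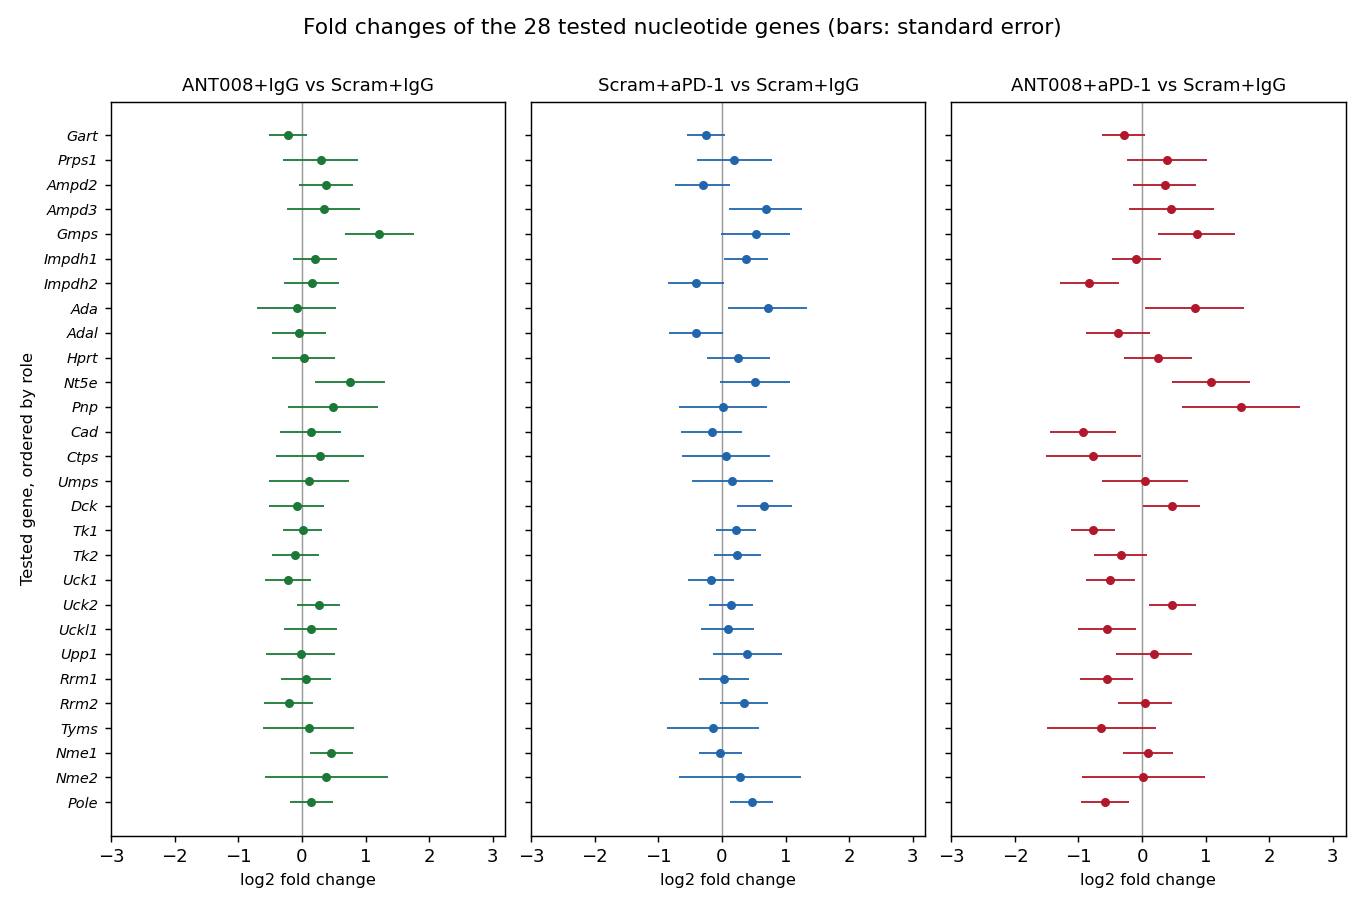
Log2 fold change (horizontal axis) of each of the 28 tested genes in the 3 treated groups against Scram+IgG, with bars for the standard error and genes ordered by role. The points of ANT008+aPD-1 run from -0.93 (Cad) to 1.56 (Pnp), and none of the 28 genes was called by edgeR in any of the 3 comparisons.

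The first steps of purine building were represented by Prps1, which makes the activated ribose phosphate on which the ring is assembled, and Gart, which carries out several steps of the assembly. Gart was among the steadier members. Gart had scaled counts of 152, 188 and 233 in Scram+IgG, 149, 203 and 139.7 in ANT008+IgG, 171, 183 and 123 in Scram+aPD-1 and 216, 136 and 144 in ANT008+aPD-1. The groups overlapped, and the values of the 10 deeper lanes stayed within a 1.89-fold range, while ANT008+aPD-1 mice 1 and 3 were below background. Its log2 fold changes against Scram+IgG were -0.22 with ANT008, -0.25 with anti-PD-1 and -0.29 with both. Prps1 had scaled counts of 96.7, 177 and 152 in Scram+IgG, 79.9, 327 and 118 in ANT008+IgG, 117, 106 and 275 in Scram+aPD-1 and 144, 101 and 325 in ANT008+aPD-1. It was high in 1 mouse of each treated group, mouse 2 with ANT008+IgG and mouse 3 in both anti-PD-1 groups, so that the groups overlapped, and its log2 fold changes against Scram+IgG were 0.29, 0.19 and 0.39. The last value was -0.032 after background subtraction, -0.32 without ANT008+aPD-1 mouse 3 and -0.49 without both shallow lanes, of which mouse 1 was below background.

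Beyond inosine monophosphate the pathway splits. Impdh2 controls entry into guanine nucleotides, Gmps completes GMP, and the AMP deaminases return AMP to the branch point. Impdh2 had scaled counts of 220.3, 355 and 376 in Scram+IgG, 281, 330.4 and 447 in ANT008+IgG, 211, 386 and 115 in Scram+aPD-1 and 108, 233 and 156 in ANT008+aPD-1. All 3 ANT008+aPD-1 mice lay below all 3 ANT008+IgG mice, and they overlapped the Scram+IgG mice. Against ANT008+IgG its log2 fold change was -0.98 (SE 0.47, edgeR adjusted p = 0.578), and it was -0.83 (SE 0.47, adjusted p = 0.458) against Scram+IgG. The raw counts behind the ANT008+aPD-1 values were 3, 295 and 13, of which the first is below background.

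Gmps had scaled counts of 79.7, 46.7 and 55.4 in Scram+IgG, 144, 55.1 and 226 in ANT008+IgG, 43.2, 148 and 69.7 in Scram+aPD-1 and 180.2, 100.2 and 84.2 in ANT008+aPD-1. ANT008+IgG mice 1 and 3 were above every Scram+IgG mouse, and mouse 2 was within their range. With ANT008 alone the log2 fold change was 1.21 (SE 0.54) with an unadjusted p of 0.0452 and an edgeR adjusted p of 0.999, and it was 0.73 without ANT008+IgG mouse 3. That p was below 0.05 in 4 of 15 alternatives. All 3 ANT008+aPD-1 mice were above the Scram+IgG mice, with the counts of mice 1 and 3, at 5 and 7, below background, and the log2 fold change was 0.86 (SE 0.60, adjusted p = 0.557). Over the 5 tested genes of these branches the median log2 fold change was 0.34 with ANT008, 0.38 with anti-PD-1 and 0.36 with both, with 0 called.

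Purine salvage and breakdown had 5 members, all tested. Hprt, which recovers hypoxanthine and guanine, was above background in every lane. Hprt had scaled counts of 134, 219 and 231 in Scram+IgG, 142, 327 and 128 in ANT008+IgG, 181, 155 and 373 in Scram+aPD-1 and 360.4, 131 and 265 in ANT008+aPD-1. The value in ANT008+aPD-1 mouse 1 is 10 counts against a background of 9.94. The groups overlapped, and the log2 fold change for ANT008+aPD-1 against Scram+IgG was 0.25 (SE 0.53, edgeR adjusted p = 0.873). It was -0.037 without ANT008+aPD-1 mouse 1 and -0.57 without both shallow lanes.

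Nt5e is the ectonucleotidase that makes adenosine at the cell surface. Nt5e had scaled counts of 51.7, 15.2 and 16.3 in Scram+IgG, 52.9, 53.3 and 35.9 in ANT008+IgG, 43.1, 18.8 and 65.6 in Scram+aPD-1 and 72.1, 55.2 and 60.2 in ANT008+aPD-1. All 3 ANT008+aPD-1 mice were above all mice of Scram+IgG and of ANT008+IgG, and the Scram+IgG mice were split, with mouse 1 at 51.7 and the others at 15.2 and 16.3. Scram+IgG mouse 2 had 16 counts against a background of 16.3 counts, so it was below background. Of the raw counts with ANT008+aPD-1, 2, 70 and 5, only that of mouse 2 was above background. Against Scram+IgG its log2 fold change was 1.08 (SE 0.62) with an edgeR adjusted p of 0.466, and 1.91 with an adjusted p of 0.0702 without Scram+IgG mouse 1.

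Pnp, which splits purine nucleosides, was the tested member above background in the fewest lanes, 5. Its raw counts were 39, 7 and 41 in Scram+IgG, 56, 5 and 5 in ANT008+IgG, 38, 24 and 1 in Scram+aPD-1 and 3, 9 and 1 in ANT008+aPD-1. The scaled value of 108 in ANT008+aPD-1 mouse 1 is thus 3 counts in a lane whose background is 9.94. It was above background in 0 ANT008+aPD-1 lanes, 1 ANT008+IgG lane and 2 Scram+IgG lanes, so the order of these groups in scaled count cannot be read. The log2 fold changes of ANT008+aPD-1 and ANT008+IgG against Scram+IgG were 1.56 (SE 0.93, edgeR adjusted p = 0.468) and 0.49 (SE 0.71, adjusted p = 0.999), on these counts. Ada, the adenosine deaminase, was above background in 7 lanes and in 0 of the ANT008+aPD-1 lanes, so its log2 fold change of 0.83 there rests on counts of 3, 15 and 5, and it was -1.03 after background subtraction. The median of the 5 genes was 0.028 with ANT008 and 0.26 with anti-PD-1, with 0 called. With both agents it was Ada's own value, which rests on counts below background, beside a median of 0.12 over all genes.

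Pyrimidine building was represented by Cad, whose single protein carries the opening steps, Umps, which makes UMP, and Ctps, which turns UTP into CTP. Cad had scaled counts of 204, 209 and 267 in Scram+IgG, 246, 131 and 373 in ANT008+IgG, 184, 312 and 102 in Scram+aPD-1 and 36.0, 152 and 120.3 in ANT008+aPD-1. All 3 ANT008+aPD-1 mice were below all 3 Scram+IgG mice. Mice 1 and 3 had 1 and 10 counts, both below background. The log2 fold change was -0.93 (SE 0.52, edgeR adjusted p = 0.458) against Scram+IgG and -1.07 (SE 0.52, adjusted p = 0.578) against ANT008+IgG, and -0.57 against Scram+IgG when mice 1 and 3 were left out.

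Ctps had scaled counts of 129.7, 384 and 319 in Scram+IgG, 137, 694 and 188 in ANT008+IgG, 163, 165 and 553 in Scram+aPD-1 and 108, 114 and 265 in ANT008+aPD-1. ANT008+IgG mouse 2 and Scram+aPD-1 mouse 3 stood far above their groups, the groups overlapped, and the log2 fold change for ANT008+aPD-1 against Scram+IgG was -0.76 (SE 0.75). Umps had scaled counts of 125, 255 and 220.4 in Scram+IgG, 116, 403 and 129.7 in ANT008+IgG, 163, 136 and 385 in Scram+aPD-1 and 144, 89.2 and 397 in ANT008+aPD-1. The same lanes were high together with ANT008+aPD-1 mouse 3, and the log2 fold change was 0.047 (SE 0.68), which was -0.23 under TMM scaling and -1.16 without the shallow lanes. Ctps and Umps were below background in ANT008+aPD-1 mouse 1. The median of the 3 genes was 0.14 with ANT008, 0.059 with anti-PD-1 and -0.76 with both, with 0 called.

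Salvage of pyrimidines and deoxynucleosides had 8 members, 7 of them tested. Dck phosphorylates deoxycytidine and was above background in every lane, in ANT008+aPD-1 mouse 1 with 10 counts against a background of 9.94. Dck had scaled counts of 305, 281 and 329 in Scram+IgG, 237, 419.9 and 209.6 in ANT008+IgG, 509.8, 269 and 680.3 in Scram+aPD-1 and 360.4, 274 and 638 in ANT008+aPD-1. The Scram+IgG mice lay close together, and each treated group had 1 or more mice above them and 1 or more below. The log2 fold changes against Scram+IgG were -0.082 with ANT008 (SE 0.43), 0.67 with anti-PD-1 (SE 0.44) and 0.47 with both (SE 0.45). The last was -0.16 without the 2 shallow ANT008+aPD-1 lanes.

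Tk1, the cytosolic thymidine kinase of cells in S phase, varied little outside ANT008+aPD-1. Tk1 had scaled counts of 152, 197 and 195 in Scram+IgG, 179, 176 and 194 in ANT008+IgG, 211, 202 and 221 in Scram+aPD-1 and 180.2, 109 and 60.2 in ANT008+aPD-1. All 9 lanes outside ANT008+aPD-1 lay between 152 and 221, and ANT008+aPD-1 mice 2 and 3 lay below all of them. The raw counts of the ANT008+aPD-1 mice were 5, 138 and 5, so the low value of mouse 3 and the higher value of mouse 1 are both below background, and only mouse 2, at 109, was measured above it.

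The log2 fold change of Tk1 was -0.77 (SE 0.35) against Scram+IgG, with an unadjusted p of 0.0483 and an edgeR adjusted p of 0.376. It was -0.78 (SE 0.35) against ANT008+IgG, with p of 0.0463 and 0.578 and an unadjusted p below 0.05 in 3 of 16 alternatives, and -0.99 (SE 0.35) against Scram+aPD-1, with p of 0.0158 and 0.747 and such a p in 13 of 15. All 3 ANT008+aPD-1 mice were below the Scram+aPD-1 mice, and Tk1 was higher in all 3 Scram+aPD-1 mice than in the Scram+IgG mice, by a log2 fold change of 0.22. Against Scram+IgG the value kept its sign in 16 of 16 alternatives and had an unadjusted p below 0.05 in 6 of them, with an adjusted p from 0.0706 to 0.885. Without ANT008+aPD-1 mouse 3 it was -0.47, with an unadjusted p of 0.206. That p was also above 0.05 without ANT008+aPD-1 mouse 2 (0.108), Scram+IgG mouse 2 (0.103) and Scram+IgG mouse 3 (0.111). Without the shallow lanes the log2 fold change against Scram+IgG was -0.73, where mouse 2 alone stands for ANT008+aPD-1.

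Upp1, which splits uridine, had log2 fold changes against Scram+IgG of -0.021, 0.40 and 0.19 for ANT008, anti-PD-1 and both, and the last was -0.41 after background subtraction. The other 4 tested genes of this role, the uridine-cytidine kinases Uck1, Uck2 and Uckl1 and the mitochondrial thymidine kinase Tk2, are named here after their values were seen. Their log2 fold changes for ANT008+aPD-1 against Scram+IgG were -0.50, 0.48, -0.55 and -0.34. The median of the 7 genes was -0.021 with ANT008, 0.22 with anti-PD-1 and -0.34 with both, with 0 called.

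Deoxynucleotide supply had 3 members. Rrm1 and Rrm2 are the large and small subunits of ribonucleotide reductase, and Tyms makes thymidylate. Rrm1 had scaled counts of 285, 205 and 275 in Scram+IgG, 301, 163 and 335 in ANT008+IgG, 325, 307 and 143 in Scram+aPD-1 and 216, 192 and 120.3 in ANT008+aPD-1. Each group other than ANT008+aPD-1 held 1 mouse well below its others, and the groups overlapped. The ANT008+aPD-1 values of mice 1 and 3 rest on 6 and 10 counts, below background. The log2 fold change for ANT008+aPD-1 was -0.56 (SE 0.42, edgeR adjusted p = 0.587) against Scram+IgG, -0.62 against ANT008 alone and -0.59 against anti-PD-1 alone.

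Rrm2 had scaled counts of 188, 148 and 169 in Scram+IgG, 121, 174 and 144 in ANT008+IgG, 259.8, 169 and 213 in Scram+aPD-1 and 360.4, 110.5 and 132 in ANT008+aPD-1. The value of 360.4 in ANT008+aPD-1 mouse 1 is 10 counts against a background of 9.94, and mouse 3, at 11 counts, was below background. Mouse 2, the deepest lane of that group, was lower than all 9 lanes of the other groups. Its log2 fold change was 0.041 (SE 0.43) against Scram+IgG, and it was -0.50 without ANT008+aPD-1 mouse 1 and 0.43 without mouse 2. Tyms had scaled counts of 37.6, 142 and 100.3 in Scram+IgG, 57.5, 186 and 57.9 in ANT008+IgG, 48.4, 40.3 and 180.3 in Scram+aPD-1 and 72.1, 29.2 and 108 in ANT008+aPD-1. ANT008+IgG mouse 2 and Scram+aPD-1 mouse 3 were high, as for Ctps and Umps, and the groups overlapped. With ANT008+aPD-1 the counts were 2, 37 and 9, of which only that of mouse 2 was above background, and the log2 fold change was -0.64 (SE 0.86). The median of the 3 genes was 0.066 with ANT008, 0.033 with anti-PD-1 and -0.56 with both, with 0 called.

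The nucleoside diphosphate kinases were Nme1 and Nme2, closely related genes that neighbor each other in the genome. Their 100-base panel targets share no run longer than 6 bases. Nme2 had scaled counts of 890.3, 4217 and 2206 in Scram+IgG, 769, 7369 and 1403 in ANT008+IgG, 1291, 1363 and 6262 in Scram+aPD-1 and 1045, 1203 and 5138 in ANT008+aPD-1. In each group 1 mouse was far above another, by up to 9.58-fold over the 10 deeper lanes, and the groups overlapped. Its log2 fold change for ANT008+aPD-1 against Scram+IgG was 0.020 (SE 0.97), and it was -1.11 without ANT008+aPD-1 mouse 3 and 0.67 without Scram+IgG mouse 2.

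Nme1 did not follow Nme2. Nme1 had scaled counts of 48.5, 44.8 and 58.7 in Scram+IgG, 65.8, 70.6 and 73.8 in ANT008+IgG, 37.9, 62.2 and 49.2 in Scram+aPD-1 and 72.1, 39.5 and 72.2 in ANT008+aPD-1. All 3 ANT008+IgG mice were above the Scram+IgG mice, with a log2 fold change of 0.46 (SE 0.34, edgeR adjusted p = 0.999). With both agents it was 0.10 (SE 0.39), with mice 1 and 3 of that group, at 2 and 6 counts, below background. That value was -0.035 under TMM scaling, -0.75 after background subtraction and -0.36 without the shallow lanes. The ratio of the Nme2 count to the Nme1 count ran from 11.7 in ANT008+IgG mouse 1 to 127 in Scram+aPD-1 mouse 3. The median of the 2 genes was 0.42 with ANT008, 0.13 with anti-PD-1 and 0.060 with both, with 0 called.

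Pole encodes the catalytic subunit of DNA polymerase epsilon, which copies the leading strand and proofreads it. Pole had scaled counts of 139, 160.0 and 157 in Scram+IgG, 149, 231 and 128 in ANT008+IgG, 199, 148 and 291 in Scram+aPD-1 and 144, 97.1 and 84.2 in ANT008+aPD-1. All 3 ANT008+aPD-1 mice were below all 3 Scram+aPD-1 mice, and mouse 1 was within the range of Scram+IgG while mice 2 and 3 were below it. The raw counts with ANT008+aPD-1 were 4, 123 and 7, of which only that of mouse 2 was above background. Against Scram+aPD-1 the log2 fold change was -1.05 (SE 0.38), with an unadjusted p of 0.0178 and an edgeR adjusted p of 0.747. It was -1.12 without the shallow lanes, where mouse 2 alone stands for ANT008+aPD-1.

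Against Scram+IgG the log2 fold changes of Pole were 0.15 with ANT008, 0.47 with anti-PD-1 and -0.58 (SE 0.38) with both. The interaction was -1.20 (SE 0.51), with an unadjusted p of 0.0360 and an adjusted p of 0.993. Against Scram+aPD-1 the sign was the same in 15 of 15 alternatives, with an unadjusted p below 0.05 in 11 of them, and that p was 0.0709 without Scram+aPD-1 mouse 3, the highest lane, 0.0695 without ANT008+aPD-1 mouse 2 and 0.0644 without mouse 3 of that group. For the interaction the sign was the same in 21 of 21, with an unadjusted p below 0.05 in 8 of them and an adjusted p from 0.432 to 1.00.

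**Figure D2:**
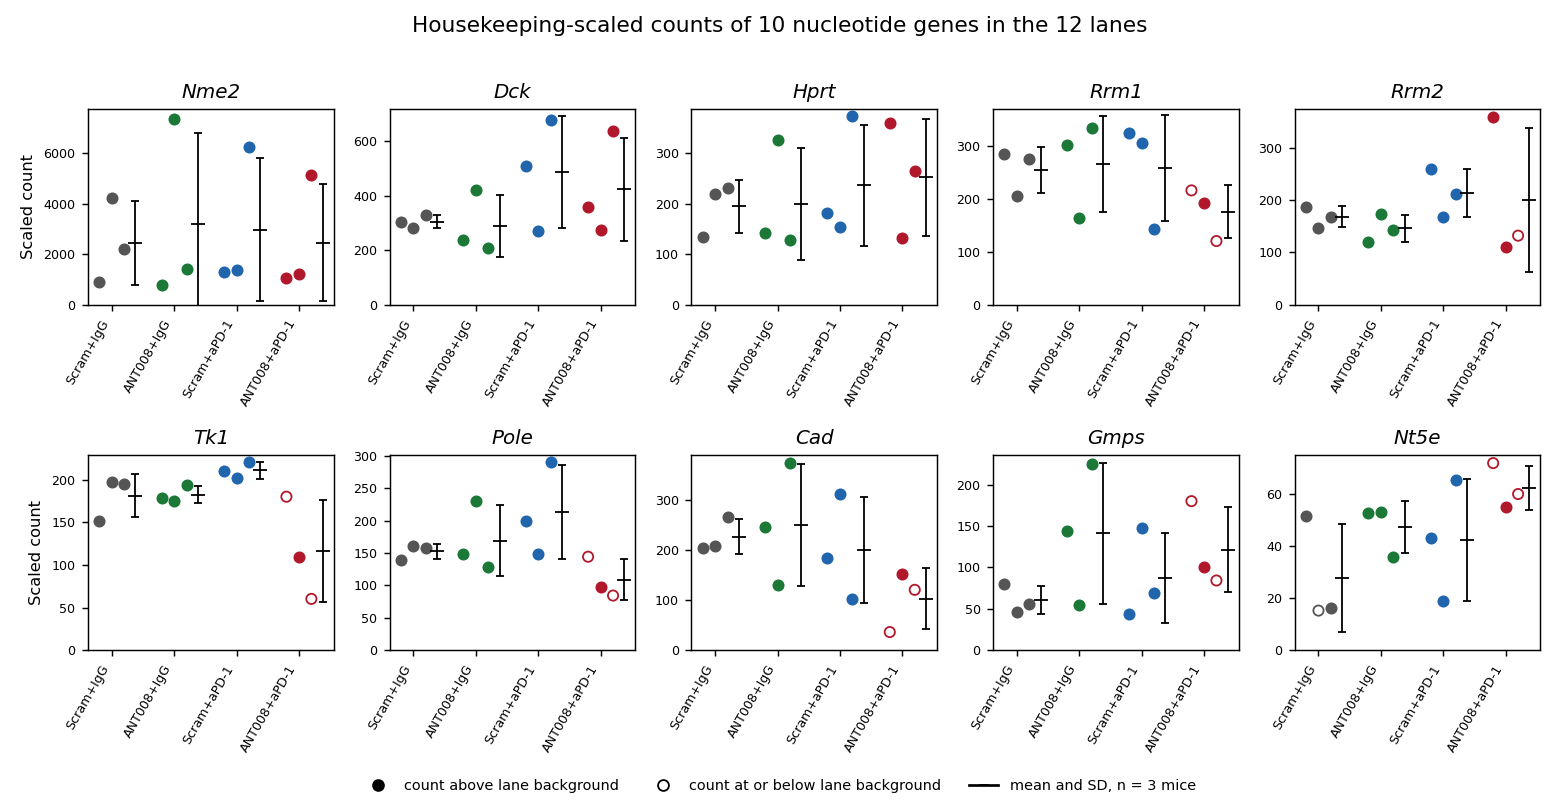
Scaled counts (vertical axis, linear from 0, a separate scale for each gene) of 10 genes in the 12 lanes, by treatment group. Filled points are counts above the background of the lane, open points are counts at or below it, and the bar shows the mean and SD of 3 mice. Tk1 lies between 152 and 221 in the 9 lanes outside ANT008+aPD-1, and for 7 of the 10 genes (all but Nme2, Dck and Hprt) at least 1 ANT008+aPD-1 point is open.

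Groups whose mice did not overlap were counted for members beside all tested genes. With both agents against Scram+IgG, 3 of 28 members were higher in all mice (Gmps, Nt5e and Pnp), beside 7.81% of all genes. Lower in all were 2 members (Cad and Uckl1, the latter named after its values were seen), beside 5.78%. With ANT008 alone 2 members (Nme1 and Pnp, the latter below background in 2 of the 3 lanes) were higher, beside 2.97%, and 0 were lower, beside 0.469%. With anti-PD-1 alone 1 member (Tk1) was higher, beside 2.97%, and 0 were lower, beside 1.09%.

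Against ANT008+IgG, the ANT008+aPD-1 mice were higher for 1 member (Nt5e), beside 6.25% of genes, and lower for 1 (Impdh2), beside 7.34%. Against Scram+aPD-1 they were higher for 0 members, beside 4.53%, and lower for 2 (Pole and Tk1), beside 7.34%. All these members were below background in mouse 1 of ANT008+aPD-1, all but Impdh2 in mouse 3, and Pnp also in mouse 2. The order of the ANT008+aPD-1 mice thus includes scaled values that cannot be told from background, and nothing is read from it.

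The deepest ANT008+aPD-1 lane, that of mouse 2, can be read without the shallow lanes. Its comparison with other lanes is in scaled counts, which rest on 3 housekeeping genes, and was not repeated under another scaling. In mouse 2, 10 of 28 members (35.7%) were lower than in each of the 9 lanes of the other groups, and 0 were higher. Over the 640 tested genes, 137 (21.4%) were lower and 25 (3.91%) higher. Ada, with 15 counts there, was itself below background. The others were Ctps, Pole, Rrm2, Tk1, Tyms and Umps, with Adal, Tk2 and Uck1 named after their values were seen. With 1 mouse there is no error for this lane. A fit without mice 1 and 3 of that group gave the members a median log2 fold change of -0.49 against Scram+IgG, beside -0.27 over all genes, with 0 genes called by edgeR, and 13 genes and 0 members at p below 0.05 before adjustment. There the lone mouse is assumed to vary like the mice of the other groups.

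Several members varied together between mice of the same group. Nme2, the member with the highest mean scaled count, was highest within its group in Scram+IgG mouse 2, ANT008+IgG mouse 2, Scram+aPD-1 mouse 3 and ANT008+aPD-1 mouse 3. In the first 3 of these lanes Ctps, Prps1 and Umps were also the highest of their group and Rrm1 was the lowest. In ANT008+aPD-1 mouse 1 all 4 genes were below background. The ratio of the Nme2 count to the Rrm1 count needs no scaling. It was 3.13, 20.6 and 8.03 in Scram+IgG, 2.55, 45.1 and 4.18 in ANT008+IgG, 3.97, 4.45 and 43.7 in Scram+aPD-1 and 4.83, 6.28 and 42.7 in ANT008+aPD-1. The Rrm1 counts of 6 and 10 in ANT008+aPD-1 mice 1 and 3 were below background, so the ratios of these lanes cannot be read. In each of the other groups 1 mouse had a ratio at least 20 and another had a ratio below 5.

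Over the 12 lanes, log2(scaled count + 1) of Nme2 and Rrm1 had a Pearson correlation of -0.77, and of -0.80 over the 10 lanes without ANT008+aPD-1 mice 1 and 3. The lanes share a size in both values and differ in depth, and log2 of the lane total correlated with Nme2 at -0.31 and with Rrm1 at 0.59 over the 12 lanes, and at -0.61 and 0.60 over the 10. Prps1 (0.95), Umps (0.94), Ctps (0.93), Tyms (0.88) and Upp1 (0.87) were the 5 of 27 other members with a correlation above 0.8 with Nme2. The median over the 27 was 0.36, beside 0.27 over 639 genes, of which 95 were above 0.8. For Rrm1 the median was -0.42 over 27 members and -0.29 over 639 genes, with 0 members and 8 genes above 0.8. Over the 10 lanes, 8 members and 168 genes were above 0.8 with Nme2, and 1 member (Cad) and 25 genes with Rrm1. The medians over the 10 lanes were 0.58 for members and 0.45 for all genes with Nme2. With Rrm1 they were -0.55 and -0.35.

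The 3 genes most like Nme2 among all endogenous genes were Ndufa7, a subunit of respiratory complex I (0.98 over 12 lanes and 0.98 over 10), Aprt, which salvages adenine (0.97 and 0.97), and Ywhaz, a signaling adapter (0.97 and 0.97). The 3 most like Rrm1 were Ezh2, a histone methyltransferase (0.96 and 0.98), Mki67, a marker of cycling cells (0.93 and 0.89), and Foxm1, a transcription factor of dividing cells (0.89 and 0.83). The T cell markers lay on the side of low Nme2: all 8 correlated negatively with it, with a median of -0.44 over 12 lanes and -0.68 over 10. With Rrm1 their median was -0.047 over 12 lanes, with 4 of 8 below 0, and 0.28 over 10. The replication and cell cycle partners had a median of 0.50 with Rrm1 and -0.23 with Nme2 over 12 lanes, and 0.40 and -0.076 over 10. The myeloid markers had a median of -0.084 with Nme2 and -0.22 with Rrm1 over 12 lanes, and -0.19 and -0.092 over 10. The part of cell composition and depth in this pattern was not tested.

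**Figure D3:**
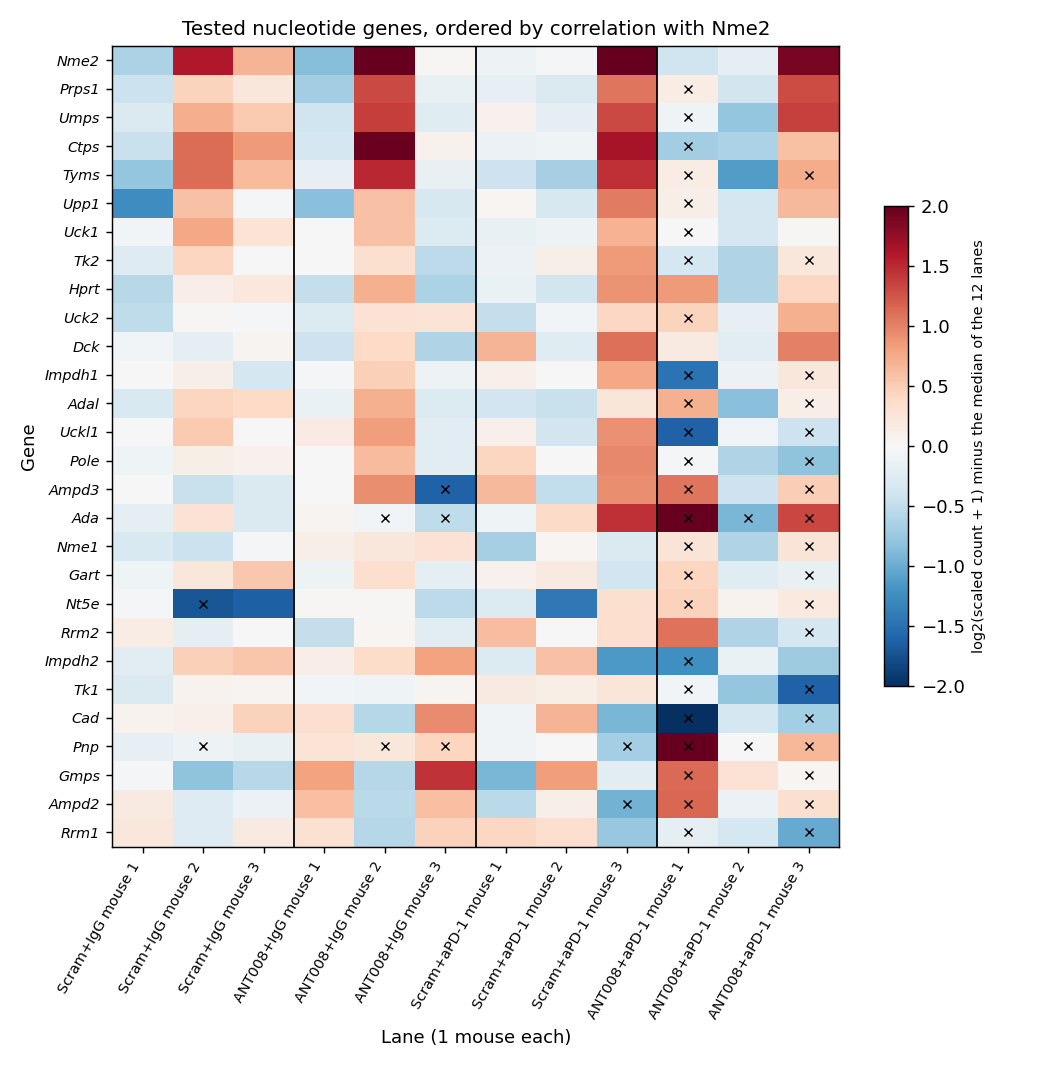
Each cell is log2(scaled count + 1) of 1 of the 28 tested genes (vertical axis) in 1 lane (horizontal axis, 1 mouse each), minus the median of that gene over the 12 lanes. Genes are ordered by their correlation with Nme2 and crosses mark counts at or below the background of the lane. The top 4 genes (Nme2, Prps1, Umps and Ctps) are red in Scram+IgG mouse 2, ANT008+IgG mouse 2, Scram+aPD-1 mouse 3 and ANT008+aPD-1 mouse 3, where Rrm1, at the bottom, is blue. In ANT008+aPD-1 mouse 3 the Rrm1 count is below background, so its color there cannot be read.

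The panel reads each gene through a 100-base target, and the targets behind the opposite pair and behind the only polymerase are given here, since a count reports these bases and not the whole transcript. They come from the deposited panel definition, 5′ to 3′. Capitals in the targets of Nme2 and Rrm1 mark the complete codons of the only frame without a stop. Capitals in the Pole target mark the codons of the first catalytic motif of its proofreading exonuclease. The targets start at base 633, 1790 and 823 of their transcripts.
Nme2: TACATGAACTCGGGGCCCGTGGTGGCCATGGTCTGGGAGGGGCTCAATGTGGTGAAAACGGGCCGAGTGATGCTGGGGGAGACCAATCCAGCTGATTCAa
Rrm1: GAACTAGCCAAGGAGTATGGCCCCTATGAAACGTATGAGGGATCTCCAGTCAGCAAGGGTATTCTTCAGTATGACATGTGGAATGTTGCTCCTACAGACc
Pole: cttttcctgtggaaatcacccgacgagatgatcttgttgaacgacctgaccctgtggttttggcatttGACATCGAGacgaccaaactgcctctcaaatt

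Ribonucleotide reductase needs both subunits, yet Rrm1 and Rrm2 had a correlation of 0.086 over the 12 lanes and 0.012 over 10. Their promoters are shown because the subunits are both induced in S phase and did not vary together here. The windows hold 250 bases before and 50 after the start of the gene, from RefSeq on GRCm38.p6. The promoter table used here was matched by symbol for 28 of the 30 member genes (all but Ampd1 and Pole). Capitals mark matches, on either strand, to the E2F-type letters TTCCCGC or TTGGCGC and to CCAAT. The windows are chr7:102441445-102441744, plus strand, for Rrm1 and chr12:24708004-24708303, plus strand, for Rrm2.
Rrm1: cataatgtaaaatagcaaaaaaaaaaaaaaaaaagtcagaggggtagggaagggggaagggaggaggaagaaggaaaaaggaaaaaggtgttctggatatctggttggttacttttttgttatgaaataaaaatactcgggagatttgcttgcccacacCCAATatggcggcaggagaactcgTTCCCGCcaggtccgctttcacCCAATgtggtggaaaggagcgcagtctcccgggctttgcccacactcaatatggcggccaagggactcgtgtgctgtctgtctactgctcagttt
Rrm2: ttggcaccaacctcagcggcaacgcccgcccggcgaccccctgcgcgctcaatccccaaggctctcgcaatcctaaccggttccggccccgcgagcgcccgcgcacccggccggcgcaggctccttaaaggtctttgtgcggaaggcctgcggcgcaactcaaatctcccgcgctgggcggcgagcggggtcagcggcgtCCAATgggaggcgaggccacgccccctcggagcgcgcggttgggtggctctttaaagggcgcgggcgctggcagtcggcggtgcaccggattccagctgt

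The Rrm1 window holds 1 E2F-type match and 2 CCAAT matches, and the Rrm2 window holds 0 and 1. An E2F-type match was found in 6.81% of the 32851 promoters of the table and in 3 of the 41 promoters of member genes (those of Impdh2, Prps1 and Rrm1). CCAAT was found in 37.4% of promoters and in 11 of the 41, and CACGTG, the letters bound by Myc and its relatives, in 7.15% and in 5 of the 41. A match is a run of letters and was not tested as a binding site.

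The neighbors of these genes in metabolism were described from lists. Of 11 other nucleotide genes, 9 were tested, with a median log2 fold change against Scram+IgG of 0.0031 with both agents, 0.044 with ANT008 and -0.21 with anti-PD-1, and 0 called. The values with both agents ran from -1.23 (Adk, adenosine kinase) to 2.08 (Ak5, an adenylate kinase). An unadjusted p below 0.05 was found for 1 gene, Adk, on the lower side, beside 12.8% of all genes on either side. The ANT008+aPD-1 counts were 2, 103 and 7 for Adk, of which only that of mouse 2 was above background. For Ak5 they were 6, 27 and 13, with mouse 1 below background and mouse 3 just above its 12.4. Xdh was the most abundant, and Cda and Tymp were above background in 0 lanes. The 6 folate and one-carbon genes had medians of -0.55 with both agents, 0.19 with ANT008 and -0.18 with anti-PD-1, with 0 called.

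The 9 partners in DNA replication and the cell cycle (among them Prim1, Prim2, Ccna2, Mki67 and Myc) had a median of -0.58 with both agents against Scram+IgG, with 8 of 9 values below 0, 3 with an unadjusted p below 0.05 and 0 called. Over all 640 genes the median was 0.12, 277 values were below 0, and 12.8% had such a p. The medians were 0.037 with ANT008 and 0.10 with anti-PD-1. In ANT008+aPD-1 mice 1 and 3, 0 and 2 of the 9 genes were above background.

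The medians of the cell markers lay above 0 in the same comparison. With both agents the median log2 fold change was 0.85 for the 8 T cell markers, 1.15 for the 5 myeloid markers, 0.68 for the 2 NK cell markers and 0.82 for the 3 stroma and tumor markers, and it was 2.90 for Ms4a1, which had 3 or 4 counts in each ANT008+aPD-1 lane, below background. With ANT008 alone the medians in that order were -0.12, 0.46, 0.17, 0.62 and -0.18. With anti-PD-1 alone they were -0.044, 0.79, -0.19, 0.25 and 0.50. EdgeR called 0 of them in each comparison. With both agents, 1 T cell and 2 myeloid markers had an unadjusted p below 0.05, beside 12.8% of all genes. Of these, Cd163 had ANT008+aPD-1 counts of 2, 13 and 23, above background only in mouse 3. Pdgfrb had 3, 4 and 4 counts there, all below background, and Ncr1 had 3, 151 and 7, above it only in mouse 2. In ANT008+aPD-1 mice 1 and 3, 2 and 4 of the 5 myeloid markers were above background. Only 1 of the 2 NK cell markers and 1 of the 3 stroma and tumor markers were above it in each of these lanes. The part of the markers in the values of the nucleotide genes was not tested.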

How the data were processed

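RNA of CD90.2-selected cells from KPC-Luc tumors of 12 mice was counted on the nCounter Metabolic Pathways panel, and the authors deposited raw counts per probe and lane, without scaling or background subtraction. Groups and mouse numbers were read from the sample titles, and columns were joined to them by the same mouse number and group name, which the columns shorten to PD and A+P for the groups given anti-PD-1. Mice share a number only by name. The 30 members were taken by symbol pattern among 748 endogenous genes, and the members and lists were chosen with earlier results of these data known.

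Background was set at 2 SD over the mean of a lane's 8 negative controls, and the 640 genes above it in at least 3 lanes were tested. Lane sizes came from 3 housekeeping genes. All 4 groups were fitted together with edgeR 4.0.16 in R 4.3.3 (glmQLFit, glmQLFTest, no covariates), p was adjusted over all 640 genes (Benjamini-Hochberg), and a gene was called at an adjusted p below 0.1. Each standard error was derived from the quasi-likelihood F statistic. The fit was checked on simulated counts. Housekeeping genes, filter and lane sizes were kept when lanes were left out.

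Named members were the textbook enzymes of each role, members with an unadjusted p below 0.05 in any comparison, members above background in no lane, and the highest and lowest fold changes among members above background in all 6 lanes of ANT008+aPD-1 and Scram+IgG. Other alternatives were TMM, total-count and positive control scaling, DESeq2 1.42.0, voom with sample weights (limma 3.58.1), other filters, background subtraction, only the groups compared, the mouse number as a block, and lanes left out. Lists of members by role, other nucleotide, folate and one-carbon genes, replication and cell cycle partners, T cell, myeloid, NK cell and stroma and tumor markers, and the B cell marker Ms4a1, were described by counts and medians. One further marker is not reported here. Correlations are descriptions on log2(scaled count + 1). Promoters are from RefSeq on GRCm38.p6. The other experiments of the study were not analysed here.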

Additional observations from a re-analysis of the deposited data

How the results depend on the processing

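The count of members called was 0 in each of the 6 comparisons and stayed 0 in 104 alternatives, counted over the comparisons, with 6 exceptions. For ANT008+aPD-1 against Scram+IgG it was 3 with voom and sample weights, 1 without the 2 lanes marked FLAG in the export (Scram+IgG mouse 1 and ANT008+IgG mouse 1), and 0 to 1 with 1 lane left out. Of the 640 genes, 156 were called with voom, 83 without the FLAG lanes, and 84 and 68 without the 1 lane that moved the count (Scram+IgG mouse 1 and ANT008+aPD-1 mouse 2). With voom it was 2 for ANT008 alone and 3 for anti-PD-1 alone, beside 44 and 143 of all genes. The cause was not tested. The members' median stayed within the spread between mice in 72 alternatives and moved beyond it in 38, of which 32 without positive control scaling.

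Directions for ANT008+aPD-1 against Scram+IgG of the 20 named tested members were kept 272 times with no call and 6 times with a call, and reversed 45 times, over the alternatives other than positive control scaling. That scaling shifts all genes down, so a sign kept or reversed there (12 were reversed) says nothing about a gene, and it is left out of the tallies of signs here and in the report. Cad, Ctps, Gart, Gmps, Impdh2, Nt5e, Pnp, Pole, Rrm1 and Tk1 kept theirs in 16 of 16. For Cad, Gart, Gmps, Nt5e, Pole, Rrm1 and Tk1, mouse 2 alone of the ANT008+aPD-1 group gave a readable count. Ctps and Impdh2 were readable in mouse 3 as well. The alternatives draw on the same lanes, so an unchanged sign does not show a direction shared by the mice of that group. Pnp was above background in 0 ANT008+aPD-1 lanes, so nothing is read from its sign. The values that reversed follow as log2 fold changes, and the cause was not tested.

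With DESeq2 they were Nme1 -0.035, Nme2 -0.23, Rrm2 -0.20 and Umps -0.19, and with TMM Nme1 -0.035, Nme2 -0.27, Rrm2 -0.14 and Umps -0.23. With total-count scaling they were Nme2 -0.13 and Umps -0.081, and with voom Rrm2 -0.074. After background subtraction they were Ada -1.03, Hprt -0.25, Nme1 -0.75, Nme2 -0.028, Prps1 -0.032, Rrm2 -0.65, Umps -0.35 and Upp1 -0.41.

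Positive control scaling moved all genes, with a median of -4.37 for the 640 genes and -4.57 for the members, and gave Ada -4.50, Dck -4.34, Gmps -3.65, Hprt -4.58, Nme1 -4.57, Nme2 -4.43, Nt5e -3.53, Pnp -3.60, Prps1 -4.37, Rrm2 -4.84, Umps -4.94 and Upp1 -4.00. The median of all genes, 0.12, was -0.034 with TMM, -0.0010 with DESeq2, 0.29 with voom, 0.33 with no filter and -0.37 after background subtraction.

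Without the FLAG lanes the values were Nme2 -0.38, Umps -0.22 and Upp1 -0.19. Without the 2 shallow ANT008+aPD-1 lanes they were Ada -0.91, Dck -0.16, Hprt -0.57, Nme1 -0.36, Nme2 -1.02, Prps1 -0.49, Rrm2 -0.61, Umps -1.16 and Upp1 -0.30, and there the lone mouse is assumed to vary like the other groups. With 1 lane left out the values ran from -0.037 to 0.65 for Hprt, -0.14 to 0.51 for Nme1, -1.11 to 0.67 for Nme2, -0.32 to 0.81 for Prps1, -0.50 to 0.43 for Rrm2, -1.35 to 0.040 for Tyms, -0.93 to 0.53 for Umps and -0.19 to 0.66 for Upp1.

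With the mouse number as a replicate block, 0 members were called and Umps was -0.11. Tumors with the same number are different animals: 7 of 18 pairs of lanes with the same number had a correlation above 0.1 (range -0.64 to 0.78), and 3 of 12 lanes correlated best with one of their own number, so the numbers do not pair the lanes.

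The filter for genes above background in all 12 lanes leaves 142 genes and 3 members, Dck, Hprt and Nme2, so the other named members have no value there. The interaction uses all 4 groups, so a fit of only the groups compared is the same fit, and lanes outside a comparison were not left out of it. The correlations without the 2 shallow lanes were chosen after seeing the data. Depth limits the ANT008+aPD-1 group, where 4 of the 30 members were above background in mouse 1, 10 in mouse 3 and 26 in mouse 2, so that a lower level of most members in mice 1 and 3 was not detectable.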
